A study of Humulus lupulus with 6 samples.

Results

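In leaf, apical meristem and stem of hop (Humulus lupulus, cultivar Cascade), 1354 loci had nearly the same RNA level in all 3 tissues. A locus joins the gene models that overlap by 1 exonic base or more, on one strand of an assembled contig. The near-equal loci were chosen by their levels. Each had a model in all tissues, at least 10 normalised CPM in every tissue, and a highest level no more than about 1.4 times the lowest (the last locus inside had a ratio of 1.4097 and the first outside 1.4102). CPM is a count scaled for the depth of its table, and TMM factors then set the tissues to a common level over most loci. The set is 14.6% of the 9289 loci that had a model and 10 normalised CPM in every tissue, out of 33811 with a model in all tissues and 67811 in all. Since these values chose the set, they are given as a description.

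The plants were untreated apart from sprays against insects and fungi, and stood in a glasshouse. Young leaves, actively growing stems and apical meristems were taken for RNA-seq. The labels list 2 samples per tissue and also speak of 1 library per tissue, while the tables hold 1 count column per tissue. Each value thus stands for a tissue without any spread between plants, and no test of a difference between tissues could be made. A level in a bulk sample cannot tell fewer expressing cells from less RNA per cell. The depth was 162799212 counted fragments for leaf, 135877224 for meristem and 125454712 for stem. Gene names are not paired with the gene numbers in these tables, so neither the functions of the loci nor tissue markers could be looked up. Sequences are not shown, because a genome of this build was not used here.

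Genes that most plant cells use all the time, often called housekeeping genes, are known for basic work such as translation, protein turnover, RNA processing and membrane traffic. Those with a steady level across tissues are the usual choice as reference genes when RNA is measured by quantitative PCR. Most plant genes are split into exons by introns that are removed by splicing. Intronless plant genes often belong to families that answer quickly to stress or to a signal. Steady levels in 3 columns do not by themselves make a locus a housekeeping gene, and none is called one here.

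The near-equal loci took 5.96% of the counted fragments of leaf, 9.10% of those of meristem and 8.83% of those of stem. The other 7935 loci compared took 77.9%, 67.1% and 73.4% in the same order of tissues. The near-equal loci thus held a smaller share of the fragments in leaf than in the other tissues, as the scaling makes them do: after scaling, their summed levels were 78424, 77873 and 78337 normalised CPM. Fragment support was high. The fewest fragments at any near-equal locus were 1253 from leaf, 1610 from meristem and 1422 from stem, and the medians were 3811, 4830 and 4461.

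Their level, the geometric mean of the 3 tissues, ran from 10.7 to 1820 normalised CPM per locus. The median was 30.7, against 39.5 for the other loci, and the middle 50% lay between 17.9 and 59.7, against 24.6 and 73.2. The rule itself bears on this gap, since a locus with a larger ratio needs a higher geometric mean to keep 10 normalised CPM in its lowest tissue, so the medians are a description only. Per kb of model, the median was 19.2 normalised CPM, against 23.6. At 320 normalised CPM or more there were 19 near-equal loci, against 221 others.

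Among loci with a model in all tissues, whatever their lowest tissue, the share that were near-equal lay between 7.92% and 12.8% at every level. It was 8.93% (8.13 to 9.79) at 10 to 20 normalised CPM, 10.6% (9.68 to 11.7) at 20 to 40 and 11.4% (10.1 to 12.7) at 40 to 80. It was 12.8% (10.996 to 14.8) at 80 to 160, 12.5% (9.76 to 15.6) at 160 to 320 and 7.92% (4.83 to 12.1) at 320 or more. The lowest of these classes is cut by the demand for 10 normalised CPM in every tissue. The last class held 19 near-equal loci of 240, and its interval reaches over most of the others. Among the 9289 loci compared, the share was 26.7% (24.5 to 29.0) at 10 to 20 and from 7.92% to 13.0% in the higher classes. The same demand bears on the 26.7%, since at that level it leaves out loci with larger ratios. Intervals of shares here are exact binomial (Clopper-Pearson) 95% intervals over loci, which treat loci as independent draws, and neighbouring loci need not be.

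Within the set, the ratio of highest to lowest tissue had a median of 1.26, with the middle 50% between 1.18 and 1.34. The highest tissue was at most 5% above the lowest at 30 loci, at most 10% at 119, at most 20% at 421 and at most 30% at 842. The ratio of the other loci had a median of 2.43 and reached 312. At some loci with the smallest ratios, the difference between tissues was within counting error. Beside the median ratio, counting error was small. Its 95% interval had a median half-width of 4.23% of the ratio and never more than 7.47%, so that 1093 near-equal loci (80.7%) had their whole interval within 1.4. The intervals of the other 261 near-equal loci crossed the limit, as did those of 297 loci just beyond it. Such intervals take in counting error alone, and PCR copies of a molecule, which no identifier marked, are counted as if independent.

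With the scaling factors, no tissue led the set by much. Stem was the highest tissue at 514 near-equal loci (38.0%), leaf at 421 (31.1%) and meristem at 419 (30.9%). Without scaling factors the order changed, with meristem highest at 357 of 872 near-equal loci, stem at 300 and leaf at 215. Among the other loci, stem was highest at 40.3%, leaf at 37.2% and meristem at 22.5%. All 6 orders of the tissues were found, from 200 loci with meristem highest and stem lowest to 265 with stem highest and leaf lowest. Levels in leaf and meristem were within 10% of each other at 465 near-equal loci (34.3%), those in leaf and stem at 480 (35.5%) and those in stem and meristem at 500 (36.9%). Among the other loci the shares within 10% were 9.39%, 5.24% and 6.88% in the same order, a gap that the rule itself bears on. At the wider limit of 1.4-fold, pairs over all loci compared made up 44.5% for leaf and meristem, 32.6% for leaf and stem and 38.5% for stem and meristem.

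**Figure D1:**
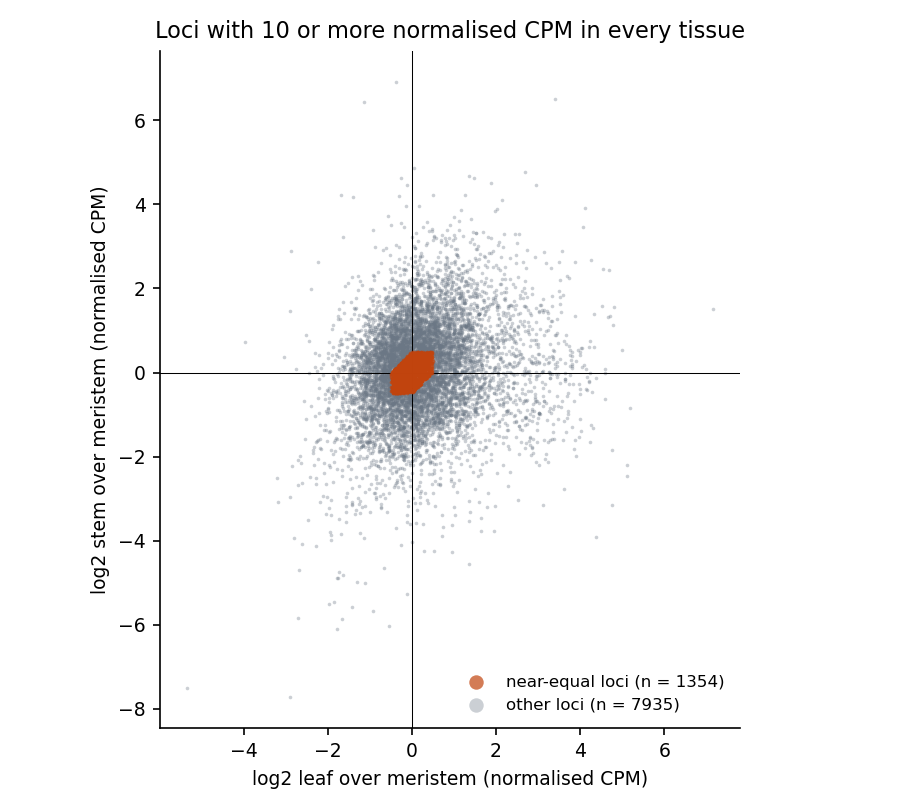
Each point is 1 of the 9289 loci with 10 or more normalised CPM in every tissue, by its log2 ratio of leaf over meristem and of stem over meristem. The 1354 near-equal loci fill the hexagon that the limit of 1.4 draws round the origin, and the other 7935 loci spread round it on all sides.

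Which loci are near-equal depends on the scaling factors. They came to 0.759 (leaf), 1.17 (meristem) and 1.13 (stem). Without them 872 loci met the limits, and 250 loci met them both ways, which is 18.5% of the near-equal loci and 28.7% of those 872. With RLE factors, another method, 1318 of the near-equal loci stayed (97.3%). A near-equal level is thus one measured relative to the bulk of loci with a model in every tissue.

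The most abundant near-equal locus, counted per locus, lay on contig 001418F (bases 257528 to 260244, minus strand, 3 exons in every tissue). Leaf held 2093 normalised CPM, meristem 1702 and stem 1692, from 258750, 270222 and 239193 fragments. Leaf was the highest tissue, 1.24-fold above stem, with a counting interval of 1.23 to 1.24, and meristem and stem were nearly level. Its models covered 1687, 1676 and 1661 bases, with all 4 internal exon boundaries the same. Per kb of model its level was 1086 normalised CPM.

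The next was on contig 000382F (bases 29269 to 31812, minus strand, 8 exons). Its level was 1388 normalised CPM in leaf, with 1195 in meristem and 1682 in stem. Stem was 1.408-fold above meristem (1.40 to 1.42), and with RLE factors 1.43-fold, so with either set of factors this locus sits at the edge of the limit. Its ratio was 1.411 per base of model and 1.799 without scaling factors, both past the limit. Its leaf model was shorter, at 1429 bases against 1631 in meristem and 1627 in stem. The same contig carried 8 near-equal loci among 42 loci compared on it, by count the most of any contig. Over all loci compared the near-equal share was 14.6%, and whether this contig differs from that was not tested.

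Next in level was one of 5 exons on contig 000729F (bases 80075 to 85295, minus strand). Leaf held 1288 normalised CPM there, meristem 953 and stem 1213. Meristem was the lowest tissue, and leaf was 1.35-fold above it (1.34 to 1.36). Among these 3 loci, leaf was highest at 2 and stem at 1, a count that holds with the scaling factors only. Leaf had fewer fragments than meristem on contig 001418F. On contig 000729F it had fewer than stem, 159216 against 171499. The leaf table was the deepest, so without the factors leaf was not the highest tissue at either locus. The ratios of both loci stayed within the limit without the factors.

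The steadiest loci were sought among the 101 near-equal loci of at least 100 normalised CPM that had 1 model per tissue, lengths within 10%, more than 1 exon and no overlap on the other strand. The steadiest, with 5 exons, was on contig 001593F (bases 677496 to 680358, plus strand), where leaf held 225 normalised CPM, meristem 226 and stem 232. Its ratio was 1.03 (1.01 to 1.048), and its models covered 1271, 1275 and 1279 bases. Another of 5 exons, on contig 002718F (bases 151510 to 176709, minus strand), had 1117 normalised CPM in leaf, against 1091 in meristem and 1066 in stem, a ratio of 1.048 (1.04 to 1.06). It was about as steady although its longest intron measured 20528 bases and only 6 of its 10 internal boundaries were the same in all tissues. Next came a locus of 26 exons on contig 006383F (bases 110 to 9127, minus strand), where leaf held 411 normalised CPM, meristem 440 and stem 415, a ratio of 1.07 (1.06 to 1.08). All 50 of its internal boundaries were shared, and per base of model its ratio was 1.01. Without scaling factors the ratios of these 3 loci were 1.54, 1.503 and 1.65, all past the limit.

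The lowest near-equal loci were on contig 010540F (bases 11202 to 15188) and on contig 002382F (bases 118397 to 120682), both on the minus strand. Leaf held 10.2 normalised CPM at the first, meristem 10.1 and stem 11.8, from 1266, 1610 and 1674 fragments, and it had 9 exons in every tissue. The second had 10.9, 10.9 and 10.4 normalised CPM. At this depth the counting interval of their ratios, 1.09 to 1.251 and 0.978 to 1.14, remained well within the limit.

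Just inside the limit were loci on contig 007808F (bases 76085 to 78384, minus strand), with a ratio of 1.4097, and on contig 002271F (bases 160621 to 165172, minus strand), with 1.4094. Leaf held 20.4 normalised CPM at the first, meristem 20.9 and stem 28.7, and at the second leaf held 30.4, meristem 26.2 and stem 21.6. Just outside were loci on contig 002896F (bases 5458 to 8704, plus strand), with 1.4102, and on contig 000196F (bases 1 to 4869, plus strand), with 1.4106. Leaf held 44.2 normalised CPM at the one on contig 002896F, meristem 33.1 and stem 46.7, and on contig 000196F leaf held 29.8, meristem 21.1 and stem 24.9. All 4 counting intervals span the limit.

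**Figure D2:**
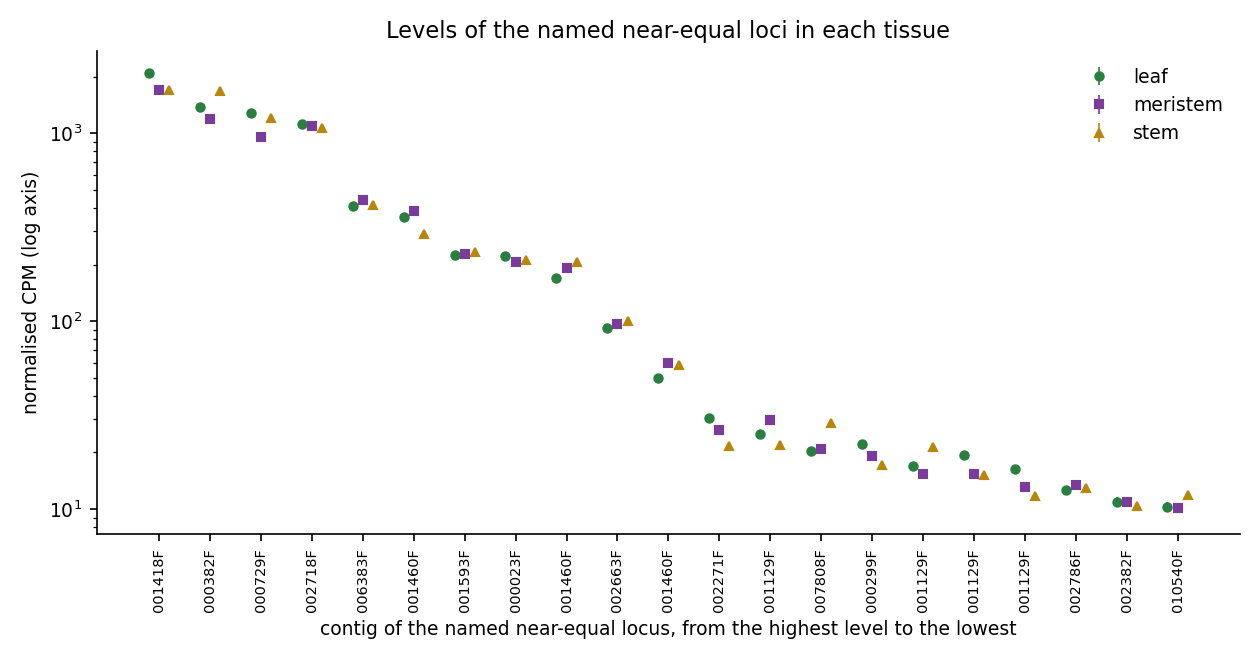
Normalised CPM per locus (log axis) of the named near-equal loci in leaf, meristem and stem, ordered from the highest level to the lowest. Bars are 95% Poisson counting intervals, mostly smaller than the symbols, and the levels run from 2093 in leaf on contig 001418F to 10.1 in meristem on contig 010540F.

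Single-exon loci made up a smaller share of the near-equal loci than of the others. Of 1354, 45 (3.32%, 2.43 to 4.42) had a single exon in every tissue, against 499 of 7935 (6.29%, 5.76 to 6.85). Weighted to the levels of the near-equal loci, the share in the other loci was 6.33%, a difference of -3.01 percentage points. The next class of loci, with ratios from 1.4 to 2, had 5.56% (4.71 to 6.52), those from 2 to 4 had 5.03% (4.34 to 5.79), and those above 4 had 10.1% (8.74 to 11.7). This difference turned round without scaling factors, where 7.80% of 872 near-equal loci were single-exon against a weighted 6.24%, a difference of 1.56 points (-0.13 to 3.54, from the interval of the near-equal share alone). The 250 loci near-equal both ways had 5.20% (2.80 to 8.73), the 1104 near-equal with the factors alone 2.90% (1.99 to 4.07), and the 622 near-equal without them alone 8.84% (6.73 to 11.4). Leaving out loci overlapped by exons on the other strand, the difference was -1.81 points.

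The single-exon share was lower in near-equal loci at each level, though not always beyond the intervals. At 10 to 20 normalised CPM they made up 5.52% of near-equal loci (3.53 to 8.16) against 6.47% of the others (5.11 to 8.05), intervals that overlap widely. From 20 to 40 it was 2.96% (1.54 to 5.11) against 6.52% (5.65 to 7.49), and from 40 to 80 it was 2.11% (0.776 to 4.53) against 6.53% (5.53 to 7.66). From 80 to 160 it was 2.47% (0.677 to 6.201) against 5.70% (4.397 to 7.25). Above 160 normalised CPM, 0 of 84 near-equal loci were single-exon, in classes of 65 and 19 whose upper limits are 5.52% and 17.6%, against 25 of 456 and 10 of 221. The 45 single-exon near-equal loci were themselves low, with a median level of 19.9 normalised CPM and a highest of 147, and short, with a median model of 1144 bases. The 1309 multi-exon ones had medians of 31.2 normalised CPM and 1733 bases.

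Over all other loci together, exon numbers were close to those of the near-equal loci. Both sets had a median of 6 exons, and the middle 50% held 4 to 10 exons in near-equal loci and 3 to 10 in the others. At least 10 exons were found at 391 near-equal loci (28.9%, 26.5 to 31.4) against 27.6% (26.6 to 28.6), and 20 or more at 49 (3.62%, 2.69 to 4.76) against 4.52% (4.08 to 5.005). Loci in the class from 1.4 to 2 had 10 or more exons in 30.4% of cases (28.7 to 32.2), those from 2 to 4 in 27.9% (26.4 to 29.4), and those above 4 in 22.6% (20.6 to 24.7), below the interval of the near-equal loci. The median was 6 exons in the classes up to 4 and 5 above it. Within the near-equal set, with the scaling factors, exon numbers were higher where meristem led. The interval of the share with 10 or more exons there overlapped that for leaf-led loci, but not that for stem-led ones. The most frequent leading tissue changed without the factors, and exon number by leading tissue was not examined there or among the other loci. Where meristem was highest, the median was 8 exons and 35.1% (30.5 to 39.9) had 10 or more, against 6 exons and 26.6% (22.4 to 31.1) where leaf was highest, and 6 exons and 25.7% (22.0 to 29.7) where stem was.

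Intron and gene size differed little. The median near-equal locus spanned 3975 bases, against 3777, with models of 1725 bases, against 1744. The longest intron of multi-exon loci had a median of 857 bases in near-equal loci and 809 in the others. Introns of 5 kb or more were found at 125 of 1309 near-equal loci (9.55%, 8.01 to 11.3), against 9.25% (8.60 to 9.93).

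The locus with the most exons was on contig 000023F (bases 228661 to 301601, minus strand). It had 118 merged exons in leaf, 130 in meristem and 121 in stem, but these came from 10, 3 and 8 gene models joined by overlap, so it need not be 1 gene. Its levels were 222, 206 and 211 normalised CPM, a ratio of 1.08 (1.06 to 1.095), and exons of an opposite-strand locus overlap it. The next, on contig 002663F (bases 82791 to 133793, minus strand), had 37, 37 and 39 exons and 92.2, 96.6 and 100.3 normalised CPM in leaf, meristem and stem. It too was built of several models in leaf and meristem, with 3 and 4, and of 1 in stem. A ratio near 1 at such a locus is that of a sum, and its parts could differ.

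Overlap with exons of a locus on the other strand had a lower share in near-equal loci. It was found at 107 of 1354 (7.90%, 6.52 to 9.47) against 931 of 7935 (11.7%, 11.03 to 12.5), or 11.3% when weighted to the same levels. It stood at 8.65% (7.60 to 9.80) for ratios from 1.4 to 2, 10.9% (9.94 to 11.98) from 2 to 4 and 18.2% (16.4 to 20.1) above 4. The near-equal loci were thus close to the class next to them, which had 8.71% when weighted, and the widest gap was to loci above 4. Without scaling factors the difference was -0.34 points (-2.36 to 1.95), at 11.2% against a weighted 11.6%. Among multi-exon loci alone it was 7.79% (6.40 to 9.38) against 10.5% (9.78 to 11.2). The counts were made by strand, but no source used here says that the kit marks strand, so reads of a locus and of its partner on the other strand may not be told apart.

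**Figure D3:**
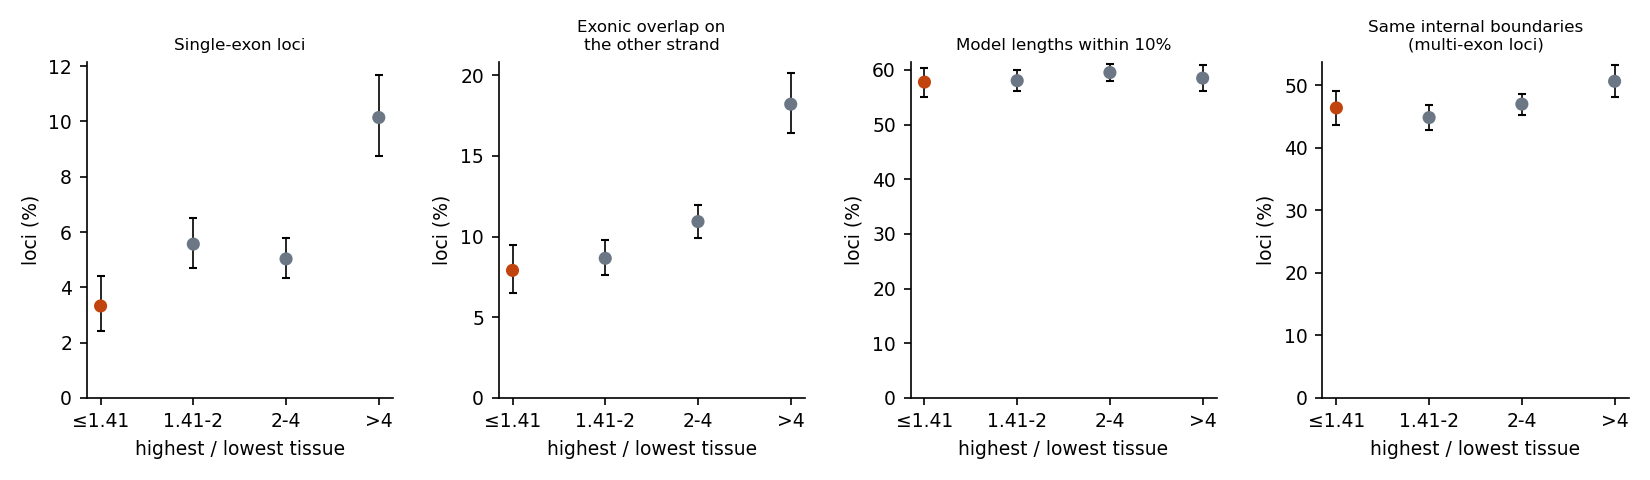
Share of loci (%) with each feature in the near-equal class (highest over lowest tissue at most 1.4) and in the classes from 1.4 to 2, from 2 to 4 and above 4, with exact binomial 95% intervals. Single-exon loci and overlap on the other strand are most frequent above 4, at 10.1% and 18.2%, while model length and boundary shares stay between 57.8% and 59.5% and between 44.8% and 50.6%.

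By most measures, gene models were about as alike in near-equal loci as in the others, and the intervals of their unweighted shares overlapped. The authors assembled models in each tissue apart, so a locus can be longer in one tissue than in another. The models of the 3 tissues were within 10% in length at 782 near-equal loci (57.8%, 55.1 to 60.4), against 58.8% of the others (57.7 to 59.9), or 56.6% weighted to the same levels. The shortest model had a median of 91.8% of the length of the longest in near-equal loci and 92.1% in the others. From 1.4 to 2, from 2 to 4 and above 4 the shares within 10% were 58.0%, 59.5% and 58.5%. A model at most 50% as long as the longest was found at 18 near-equal loci (1.33%, 0.790 to 2.09), against 2.12% (1.81 to 2.46). Weighted to the same levels, the share in the others was 2.31%, above the near-equal interval. With a minimum of 1 normalised CPM, lengths within 10% had a share of 47.8% in near-equal loci against a weighted 42.9%, a difference of 4.89 points (2.80 to 6.98).

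All internal exon boundaries were the same in the 3 tissues at 607 of 1309 multi-exon near-equal loci (46.4%, 43.6 to 49.1), against 47.0% (45.9 to 48.2), or 44.6% weighted. Without scaling factors the boundary share was 52.7% in near-equal loci against a weighted 46.5%, a difference of 6.25 points (2.73 to 9.75). Exon number was the same in every tissue at 60.4% (57.7 to 63.1), against 61.6% (60.5 to 62.7). Pooled over all boundaries of each set, 81.1% of the internal boundaries seen in any tissue were seen in all, against 78.4%. Per multi-exon locus, the shared part had a mean of 80.3% against 80.6%, and a median of 90.5% against 91.5%. A single model in every tissue was found at 78.8% of near-equal loci (76.5 to 81.0), against 77.9% (77.0 to 78.8). Weighted to the same levels, the share in the others was 76.3%, just below the near-equal interval.

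What the lengths did follow was level. Among near-equal loci, lengths within 10% were found at 49.6% of loci at 10 to 20 normalised CPM, 56.2% at 20 to 40, 61.1% at 40 to 80, 71.0% at 80 to 160, 66.2% at 160 to 320 and 78.9% at 320 or more. The other loci had 47.8%, 54.7%, 61.3%, 67.6%, 70.4% and 77.8%, and in each class the intervals of both sets overlap. Boundaries that were all the same went with level too, with 39.6% of near-equal multi-exon loci in the lowest class and 68.4% in the highest, against 34.9% and 70.6%. Leaf held the shortest model at 54.4% of near-equal loci, stem at 29.7% and meristem at 20.8%, ties included, against 50.4%, 31.3% and 22.8% of the others.

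**Figure D4:**
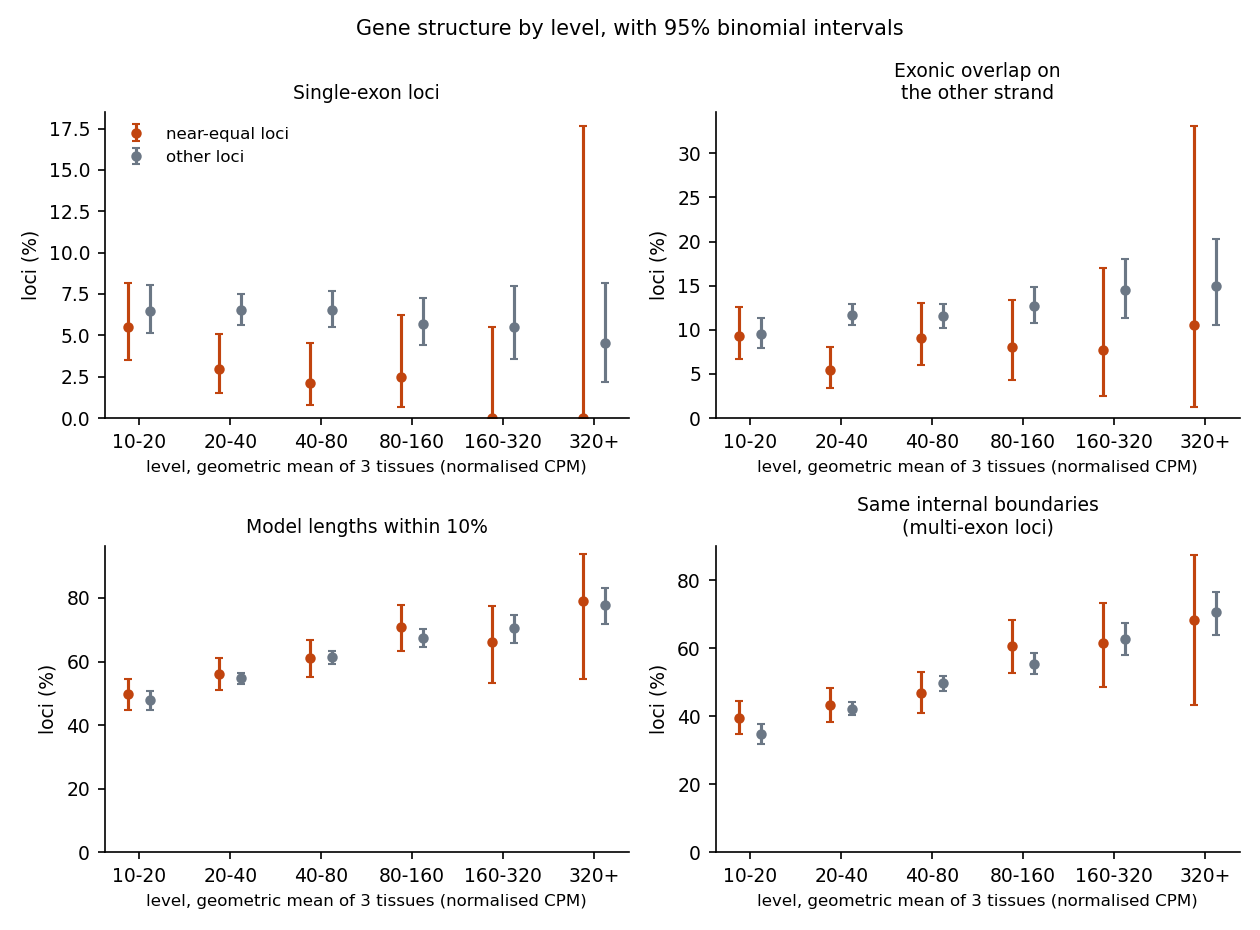
Share of loci (%) with each feature by level (geometric mean of the 3 tissues, normalised CPM per locus), for near-equal and other loci, with exact binomial 95% intervals. Length and boundary shares are higher in the top level class than in the lowest in both sets, from 49.6% and 47.8% to 78.9% and 77.8% for length, and the single-exon share is lower in near-equal loci in every class.

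Model length bears on the counts themselves, since a shorter model collects fewer fragments. Divided by model length, the levels of 1071 near-equal loci (79.1%) kept a ratio of at most 1.4, among 1367 loci that had one by this measure. Of near-equal loci with lengths within 10%, 94.0% stayed, and of the rest 58.7%. At 25 near-equal loci the ratio per base exceeded 2. The least alike models were on contig 002786F (bases 435979 to 437537, plus strand), with 241 bases in leaf, 1019 in meristem and 996 in stem. Its levels were 12.7, 13.3 and 13.0 normalised CPM, a ratio of 1.053 (0.986 to 1.12), and per base the ratio was 4.03. On contig 000299F (bases 17033 to 21235, plus strand), the models covered 2854, 3945 and 967 bases, at 22.1 normalised CPM in leaf, against 19.1 in meristem and 17.2 in stem. Its ratio was 1.29 by counts and 3.68 per base, 0 of its 8 internal boundaries were shared, and it is overlapped on the opposite strand. Such loci are equal in counts and unequal per base, and which of these describes the RNA was not tested.

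The 9289 loci compared lay on 3521 contigs, and near-equal loci were found on 1029 of these. Of the 1029 contigs, 811 had 1 near-equal locus and 67 had at least 3. With few loci compared per contig, such counts, like those of stretches below, do not by themselves show how near-equal loci are arranged. Ordered along the contigs among loci compared, the next locus was near-equal after 139 of 851 near-equal loci (16.3%, 13.9 to 19.0), against 668 of 4917 other loci (13.6%, 12.6 to 14.6). Of the stretches of consecutive near-equal loci, 1093 held 1 locus, 106 held 2, 15 held 3 and 1 held 4.

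The excess was widest for close neighbours on the same strand. Where the next locus was on the same strand and under 1 kb away, it was near-equal in 21 of 53 cases after a near-equal locus (39.6%, 26.5 to 54.0), against 24 of 233 (10.3%, 6.71 to 14.9). Close neighbours on opposite strands gave 2 of 36 (5.56%, 0.680 to 18.7), against 33 of 253 (13.0%, 9.15 to 17.8). On both strands together, the shares were 18.6% (11.02 to 28.4) and 14.1% (11.3 to 17.5) at 1 to 5 kb, and at 5 to 20 kb 24 of 120 (13.3% to 28.3%) and 13.4% (10.7 to 16.4), higher after near-equal loci but with overlapping intervals. At 20 kb or more they were 13.6% (10.8 to 16.7) and 13.7% (12.6 to 14.9). Leaving out same-strand pairs under 1 kb, the overall shares became 14.7% (12.3 to 17.4) and 13.7% (12.7 to 14.7). With a minimum of 30 normalised CPM in every tissue they were 16.3% and 16.4%, a difference of -0.12 points. The comparison of neighbours was not matched for level. Where the first locus had 10 to 20 normalised CPM the shares were 19.1% (14.5 to 24.4) and 13.6% (11.1 to 16.4), and among loci of level 20 or more the difference was 0.90 points (-1.74 to 3.94). Choosing the loci per base of model, it was 1.45 points (-0.90 to 4.05), both intervals being those of the share after near-equal loci alone.

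The levels within close same-strand pairs were also compared. The 21 pairs of near-equal loci had a median gap of 158 bases, against 324 bases in the 209 pairs with no near-equal locus. Per base of model, their levels were within 2-fold in 16 of 21 pairs (76.2%), with a median fold of 1.32, against 126 of 209 pairs (60.3%) and 1.68. The 56 pairs with 1 near-equal locus had 33 within 2-fold per base (58.9%) and a median fold of 1.74. Counted per locus, 11 of 21 (52.4%), 24 of 56 (42.9%) and 107 of 209 (51.2%) were within 2-fold. No interval was computed for these shares, and 21 pairs are few. Whether any such pair is 1 gene in 2 models was not tested.

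**Figure D5:**
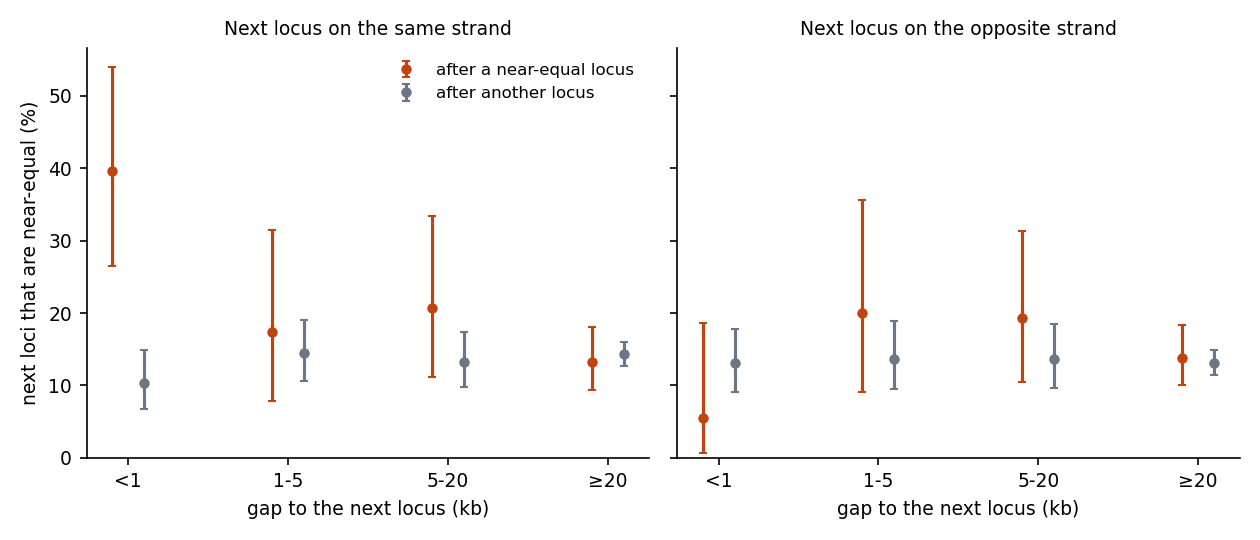
Share (%) of next loci on the same contig that are near-equal, after a near-equal locus and after another locus, by the gap in kb and by strand, with exact binomial 95% intervals. The same-strand class under 1 kb stands out with 39.6% against 10.3%, and from 1 kb on the intervals overlap on both strands.

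The longest stretch held 4 near-equal loci on contig 001129F, and none of its gaps was under 1 kb. The loci lay at 231836 to 233637 (minus strand), 235935 to 237599 (plus strand), 311385 to 316953 (plus strand) and 410512 to 412544 (minus strand), with gaps of 2297, 73785 and 93558 bases. Their levels were low, at 17.7, 16.5, 13.5 and 25.5 normalised CPM. With the scaling factors, stem was highest at the first, leaf at the next and at the one after it, and meristem at the last. The neighbours thus did not share a leading tissue. Of the stretches of 3, that with the highest mean level was on contig 001460F, with loci at 296300 to 302616, 378925 to 382510 and 656143 to 657904 (all minus strand) at 342, 55.6 and 188 normalised CPM. Meristem was highest at the first (385, against 357 in leaf and 291 in stem) and at the second (59.5, against 49.7 and 58.1), and stem at the last (206, against 169 in leaf and 191 in meristem). Gaps of 76308 and 273632 bases separate them. Neither stretch stayed whole under other settings. Without scaling factors, the first and last loci on contig 001129F had ratios of 1.89 and 1.83, while the middle ones stayed within the limit. Those on contig 001460F then had 1.66, 1.84 and 1.81, all past it. Per base of model, the loci at 311385 (1.43), 410512 (1.71) and 656143 (1.414) were past it. With RLE factors, only the first on contig 001129F was (1.418).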

How the data were processed

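Raw fragment counts were used as the authors deposited them, 1 column per tissue. Per the file headers, they were made with featureCounts 1.6.3 on paired reads, strand setting 1, each against gene models of that tissue on a masked, deduplicated Cascade assembly. HISAT2 2.1.0 and StringTie 1.3.3b are named in the submitters' processing notes. No further build name is known here. Per the file headers, no option to count reads aligning to several places was set, so near-identical copies are under-counted. Of 59990 distinct gene numbers, 0 matched the RefSeq table at hand (drHumLupu1.1). Model lengths are bases of the merged exons of each tissue's models at a locus, taken from the exon coordinates that the authors deposited.

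Models overlapping by 1 exonic base or more, strand by strand, were joined into loci, and counts summed. TMM factors came from edgeR 4.0.16 in R 4.3.3, over loci with a model in all tissues and with table totals as library sizes. edgeR served for scaling only. The limits of 10 normalised CPM and 1.4-fold then chose the loci. A count of 10 normalised CPM is 1236 fragments for leaf, 1588 for meristem and 1414 for stem. Exon number is the median over tissues of merged exons, and internal boundaries are all exon ends except the outermost. Overlapping isoforms merge exons, so exon number can be understated. Shares in other loci were also weighted to the near-equal loci's 6 level classes. Named loci followed a rule: the 3 of highest level, the 3 steadiest well-modelled, and 2 each for most exons, longest stretches, just inside and outside the limit, least length agreement and lowest level. The members, lists and comparisons were chosen with earlier results of these data known. No p-value was computed. Locus joining and selection were tested on simulated data. Python 3.11.15, pandas 2.3.3, numpy 2.4.6, scipy 1.17.1 and matplotlib 3.10.9 were used. Alternatives were other scaling, limits, locus merging and subsets.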

Additional observations from a re-analysis of the deposited data

How the results depend on the processing

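No paired analysis was possible because each tissue has a single column without a replicate number, and for the same reason no sample could be left out. Differences are near-equal minus other loci, in percentage points, weighted to equal level except for neighbours. Without scaling factors there were 872 near-equal loci, the single-exon difference was 1.56 (against -3.01), the boundary difference 6.25 (against 1.74) and the opposite-strand difference -0.34 (against -3.40). With a CPM minimum of 1 there were 2242 loci of median level 15.5, with differences of 4.89 for length (against 1.18) and -4.79 for opposite-strand overlap. With a minimum of 30 there were 640 loci of median level 62.4, with -1.68 for single-exon and -0.12 for neighbours (against 2.75), where the main interval starts at 0.326. A ratio limit of 1.2 gave 421 loci of median level 28.1, and a limit of 2 gave 3943 with -1.74 for single-exon. Lengths within 10% left 782 loci of median level 35.1. The single-exon difference was -4.10 with 1 model per tissue and -1.81 without overlapped loci. Chosen after seeing the data, level 20 or more gave a median of 44.7, -3.92 for single-exon and -4.83 for opposite-strand overlap. Comparison with all loci of level 10 or more, also chosen then, gave -4.50, -5.30 and, for length, 4.15. The cause of these shifts was not tested. Every other value under RLE factors, the low-count filter, counts per base, merging by span and level per kb (the last chosen after seeing the data) stayed within its interval, or within 1.5 times for counts. Among these, the length difference was 2.95 (0.287 to 5.57) per base and 0.120 (-2.56 to 2.77) by level per kb. The boundary difference was 0.596 (-2.12 to 3.33) per base and 3.45 (0.717 to 6.19) by level per kb. Such intervals are those of the near-equal share alone. Of 23 named loci, 16 changed sides of the ratio limit without scaling factors, 7 per base and 3 with RLE factors. At this depth, the counting intervals of 261 near-equal loci and of 297 others reached the ratio limit. Model lengths and boundaries agreed less often at low levels, and whether depth bears on this was not tested. Variation between plants could not be estimated.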

Other observations

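With a minimum of 1 normalised CPM in every tissue instead of 10, 2242 of 22363 loci (10.03%) had a ratio of at most 1.4, against 14.6% of the 9289 loci at the minimum of 10. The 2242 include all 1354 near-equal loci. They took 6.32% of the fragments for leaf, 9.65% for meristem and 9.37% for stem. Of them, 7.98% were single-exon, against 11.7% of the other loci at that minimum.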
